A study of Drosophila melanogaster with 13 samples.

Results

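The 278 regions described here were sites of wild-type Pita that 2 antibodies found in the wild-type line and that the FLAG antibody found in neither of 2 lines with an altered Pita protein. They were chosen by peak calls in ChIP-seq (chromatin immunoprecipitation followed by sequencing) of whole adult Drosophila melanogaster. A region is a Pitawt FLAG peak that shares at least 1 bp with a Pitawt Pita peak and none with a FLAG peak of PitaΔZ or of PitaZ276. Of the 1792 Pitawt FLAG peaks 1143 were found with both antibodies, and the 278 are 24.3% of those, a share fixed by the choice. Of all 1792 peaks, with or without the Pita antibody, 37.6% met no FLAG peak of either altered line.

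Pita is a zinc-finger DNA-binding protein of Drosophila insulators, the elements that bound regulatory domains. It recruits the cofactor CP190 and is known for the boundaries of the bithorax complex. Its N-terminal ZAD (zinc finger-associated domain) lets Pita molecules pair with each other, while the C2H2 zinc fingers read the DNA.

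The Pitawt flies carried the wild-type protein on the allele labelled pita1attP. PitaΔZ flies (PitadeltaZ in the labels, y1w1118; pita1attP) carried Pita without the ZAD, and PitaZ276 flies (pita1attP) had the ZAD-like domain of human ZFP276 instead. All 3 lines thus share pita1attP. Chromatin came from ground whole adults aged 2 to 3 days, so signal from all tissues is averaged. Each line was assayed with a FLAG and a Pita antibody, in 2 libraries each, and the 1 control library, labelled IgG with the title Preimmune, came from Pitawt flies, so no altered line has a control of its own. The deposited data are 1 peak list for each line and antibody, of 1792 (Pitawt FLAG), 1195 (Pitawt Pita), 685 (PitaΔZ FLAG), 797 (PitaΔZ Pita), 1243 (PitaZ276 FLAG) and 492 peaks (PitaZ276 Pita). Every list joins a pair of peak lists and has no read counts, so the depth is unknown and no test over replicates was possible. A site that is not called in a shorter list may still be bound below that list's threshold.

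The strongest of the 278 sites lay in or beside genes for a rhomboid-family protein, a fucosyltransferase and a checkpoint kinase. The values are the authors' fold enrichment over background, a ratio that describes each list alone, and the −log10 p of the peak in each joined list. The site with the highest Pitawt FLAG fold lay inside rho-6 (dm6, 2L:12130587-12131309), a gene of the rhomboid family of intramembrane proteases, its summit 446 bp from the gene end. Its FLAG fold was 37.8, rank 211 of 1792, with −log10 p of 735 and 724 in the joined FLAG lists. With the Pita antibody its fold was 48.1, rank 113 of 1195, and its −log10 p was 758 and 237. The joined FLAG lists gave nearly the same strength, whereas the second Pita list was well below the first. That gap is a trait of the whole Pitawt Pita list: over its 1195 peaks the medians of −log10 p were 80.2 and 40.4.

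The second site lay inside FucTA (3L:15148923-15150326), which encodes an α1,3-fucosyltransferase. It had a FLAG fold of 37.6 and a Pita fold of 41.5, with FLAG −log10 p of 402 and 404. The third lay inside the annotated pseudogene CR43669 (2L:16699974-16700735), 361 bp from the end of grp, the fly Chk1 checkpoint kinase gene, with folds of 36.4 (FLAG) and 33.0 (Pita). These 3 were the only sites of the 278 in the top fold bin of the two-antibody sites, which held 229 sites with folds of 35.8 to 227.

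The next site lay deep inside CenG1A (2L:13882323-13883129), which encodes an ARF GTPase-activating protein, 15830 bp from the nearest gene end. Its FLAG fold was 31.3 and its Pita fold 40.6. A site between genes (3L:22425018-22425887), 594 bp from lncRNA:CR45966, had a FLAG fold of 28.5 and the highest Pita fold of the 278, at 50.1, rank 105 of 1195. Its −log10 p was 554 and 599 with FLAG, and 944 and 259 with the Pita antibody. No site of the 278 was among the strongest 100 of the Pitawt Pita list, and 6 were among its strongest 200.

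Another intergenic site lay 799 bp from AstC, the gene of the neuropeptide allatostatin C (2L:11081934-11082487), at FLAG rank 401 of 1792, with a Pita fold of 19.9. Inside haf, which encodes a leucine-rich repeat protein, the site at 2L:1577972-1579437 had folds of 23.5 and 21.6. Inside grh, the gene of the epidermal transcription factor Grainy head, the site at 2R:17806425-17806990 had folds of 21.6 and 28.8. Of the rest of the 12 strongest by FLAG fold, sites lay inside Frl, a formin gene (21.1), CG7766 (20.5) and Prip, an aquaporin gene (19.9). Of the 12 strongest, 3 had a summit within 500 bp of a gene end, those at rho-6 and grp among them.

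The 8 sites with the highest Pita fold included 6 of these 12. The other two lay inside GluClalpha, the glutamate-gated chloride channel gene (3R:19766113-19767326), and between genes, 1937 bp from CG12780 (2R:8554003-8554539). At GluClalpha the FLAG fold was 17.5 and the Pita fold 33.7, with −log10 p of 392 and 402 for FLAG and 753 and 141 for Pita. At CG12780 the folds were 17.6 and 29.0.

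**Figure D1:**
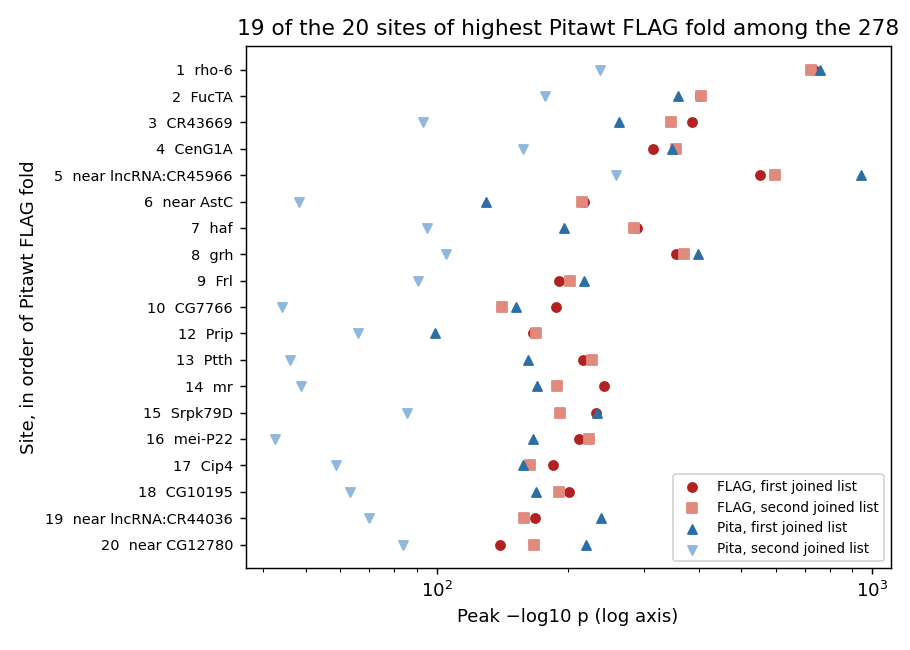
Peak −log10 p (log axis) of 19 of the 20 sites with the highest Pitawt FLAG fold among the 278, with 1 point for each joined list of each antibody. The FLAG points of a site lie close together, as the 735 and 724 at rho-6 do, while the second Pita list lies below the first at all 19 sites.

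The 278 sites were on the whole weak in the wild type. Their Pitawt FLAG fold ran from 3.31 to 37.8 with a median of 8.56 (quartiles 6.66 and 11.7), and their Pita fold ran from 4.34 to 50.1 with a median of 8.09. By comparison, the median FLAG fold was 28.3 in the 584 two-antibody sites that were FLAG-called in both altered lines and 13.7 in the 279 FLAG-called in PitaZ276 only. It was 5.17 in the 396 sites found with FLAG alone in the wild type and FLAG-called in neither altered line. In the 253 found with FLAG alone but FLAG-called in an altered line it was 7.22, below the median of the 278. The choice of sites by calls bears on these values, so they are a description without a test. The full ranges overlap: the sites FLAG-called in both altered lines started at a fold of 6.16, below the median of the 278. The bulk of the folds did not, as the quartiles of those sites were 18.8 and 45.8.

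**Figure D2:**
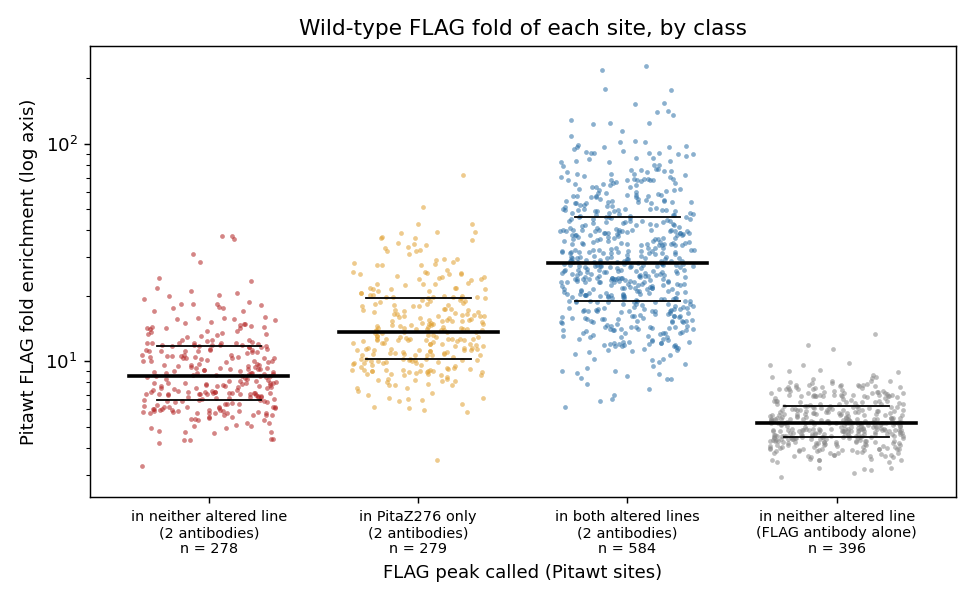
Pitawt FLAG fold (log axis) of each site by class, with medians as thick lines and quartiles as thin lines. The 278 sites on the left have a median of 8.56, against 13.7, 28.3 and 5.17 in the next 3 classes; the 2 two-antibody sites FLAG-called in PitaΔZ only are not drawn.

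A strong wild-type peak that was missing from both altered lines was rare. None of the 200 highest Pitawt FLAG folds belonged to the 278, and 4 of the highest 300 did. Among the 685 highest, a number equal to the length of the PitaΔZ FLAG list, there were 38, or 5.60% of the two-antibody sites in that range. Of the 493 two-antibody sites with a fold of at least 20, 11 belonged to the 278. From the strongest of 5 equal-sized fold bins (bin 1) to the weakest (bin 5), the 278 took 3 of 229, 5 of 228, 32 of 228, 76 of 229 and 162 of 229 sites. The weakest was inside CG4497, with a FLAG fold of 3.31 and −log10 p of 14.1 and 14.9, and 12 sites had a fold under 5.

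The antibodies and the joined lists placed the summits of most of these sites close together. FLAG and Pita summits were a median of 20 bp apart (quartiles 8 and 39.8 bp), and 264 of the 278 were within 100 bp (exact Clopper-Pearson 95% interval of the share 91.7 to 97.2%). The interval covers counting error only, as do all intervals here. The median was 17 bp in sites FLAG-called in PitaZ276 only and 11 bp in those FLAG-called in both altered lines. Between the joined FLAG lists the summits were a median of 17 bp apart, and −log10 p differed by less than a factor of 2 at all 278 sites. The same was true at every Pitawt FLAG peak of the other classes. The list holds only peaks found in both joined lists, and the choice required an overlapping Pita peak, so some agreement was built in. Between the joined Pita lists −log10 p differed by less than a factor of 2 at 97 sites (34.9%, 29.3 to 40.8), with the first list the stronger at 269. It held at 36.6% of sites FLAG-called in PitaZ276 only, about the same share, and at 61.1% of those FLAG-called in both altered lines. Only 5 regions met 2 Pita peaks, at Sid, Atg2, Rtca, Vti1b and CG9062. At Rtca the summit of the Pita peak with the higher fold lay 1430 bp from the FLAG summit, the largest such distance among the 278. Measured to the nearest Pita summit instead, the largest distance among the 278 was 854 bp. Across the 278 sites FLAG and Pita folds had a Spearman correlation of 0.789, a description over peaks that share the control library.

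**Figure D3:**
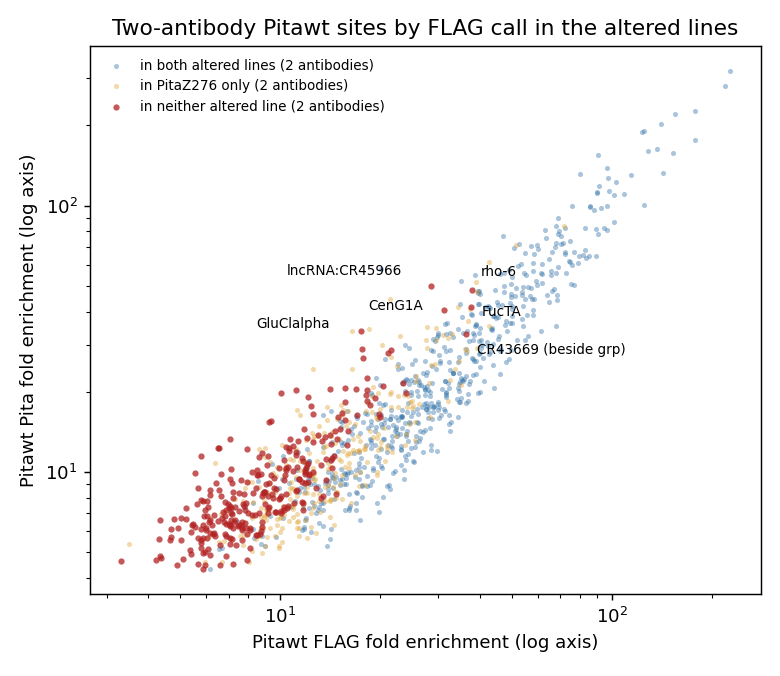
Pitawt Pita fold against Pitawt FLAG fold (log axes) for two-antibody sites, coloured by the FLAG call in the altered lines. The 278 sites fill the lower left, and a few named ones stand among stronger sites, such as rho-6 at 37.8 and 48.1 and the site near lncRNA:CR45966 at 28.5 and 50.1.

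The Pita antibody lists of the altered lines, which the choice did not use, held almost none of the 278 sites. In PitaΔZ 1 of 278 sites (0.360%, 0.00911 to 1.99) met a Pita peak, where 54.9% of all two-antibody sites did. In PitaZ276 0 of 278 did, which allows a share of up to 1.32% by the same interval, against 39.4% of all two-antibody sites. The shares were about as low in the sites found with FLAG alone and FLAG-called in neither altered line. There the PitaΔZ Pita list met 3 of 396 (0.758%) and the PitaZ276 Pita list 1 of 396 (0.253%). The Pita lists carry limits of their own. The PitaZ276 Pita list is the shortest, at 492 peaks, and its joined lists are unlike each other, with medians of 16.8 and 537 for −log10 p. The PitaZ276 FLAG list, which the choice did use, was also uneven, with medians of 66.6 and 179. In the PitaΔZ FLAG list they were 216 and 225, and in the Pitawt FLAG list 81.3 and 79.6. The PitaΔZ Pita list met 0 of the 10 strongest PitaΔZ FLAG peaks. The lists also differ in their smallest −log10 global IDR (the reproducibility score of the joining test), which was 1.30 to 1.31 in Pitawt Pita and both PitaZ276 lists and 2.00 to 2.02 in the others.

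Within the same bin of wild-type fold, sites were found in those lists more often when FLAG had called them in an altered line. Strength was not matched further within a bin, so the compared sites may still differ in it. In the weakest fold bin (3.31 to 9.30) the PitaΔZ Pita list met 1 of the 162 sites (0.617%, 0.0156 to 3.39) and 24 of the 67 other two-antibody sites (35.8%, 24.5 to 48.5). In bin 4 (9.35 to 14.1) it met 0 of 76 and 78 of 153 (51.0%, 42.8 to 59.1). In the PitaZ276 Pita list the weakest bin gave 0 of 162 against 5 of 67 (7.46%, 2.47 to 16.6), and bin 4 gave 0 of 76 against 25 of 153 (16.3%, 10.9 to 23.2). The 67 and 153 were themselves taken on FLAG calls in either altered line, not always the line whose Pita list is read. Of the 627 other two-antibody sites that the PitaΔZ Pita list met over all bins, 67 were FLAG-called in PitaZ276 only. The site that the PitaΔZ Pita list did hold lay between genes on 2R (7453515 to 7454284), 796 bp from Inos, which encodes the inositol synthesis enzyme. It had folds of 6.67 (FLAG) and 6.74 (Pita) in the wild type and 3.41 in PitaΔZ Pita.

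Most of the 278 sites were at least 5000 bp from any altered-line FLAG peak. The nearest PitaΔZ FLAG peak was a median of 54196 bp away and the nearest PitaZ276 FLAG peak 28746 bp. The nearest of either lay within 500 bp at 6 sites and at 5000 bp or more at 241. The rule left out every site that met such a peak, and these distances were not measured for another class. The PitaZ276 FLAG list is also the longer, with 1243 peaks against 685. Closest to the limit of the rule was the region over tRNA:Pro-CGG-2-2 (3L:17339783-17340765), with a wild-type FLAG fold of 13.3, whose edge was 125 bp from a PitaΔZ FLAG peak of fold 28.2 and 133 bp from a PitaZ276 FLAG peak. The next 4 lay inside Targ1 and Targ2, inside Nost, inside lncRNA:CR46061 and beside Act42A, an actin gene. These lay 291, 300, 322 and 363 bp from a PitaZ276 FLAG peak.

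On the other side of the limit, the two-antibody sites with the smallest overlap shared 250 to 274 bp with a PitaZ276 FLAG peak. These were narrow peaks covered over most or all of their width, such as the one in CHES-1-like, covered over all of its 259 bp. One was on an unplaced X sequence, and the others lay inside Abd-B (wild-type FLAG fold 21.8), CHES-1-like (6.09), shot (20.3) and Cadps (12.6). Their PitaZ276 folds were 3.62 to 6.29. No two-antibody site overlapped by only a few bases, and none missed by less than 125 bp.

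Most of these sites lay in gene bodies, away from the gene ends where Pita peaks of the other classes were more common. A summit within 500 bp of either end of a gene was found at 94 of 278 sites (33.8%, 28.3 to 39.7). The share was 50.2% (44.2 to 56.2) for sites FLAG-called in PitaZ276 only and 72.8% (69.0 to 76.3) for those FLAG-called in both altered lines. A further 149 sites (53.6%, 47.5 to 59.6) were inside a gene and farther from its ends, against 109 of 279 and 105 of 584 in those classes. The other 35 (12.6%, 8.93 to 17.1) lay between genes. Counting every distance, 230 summits (82.7%, 77.8 to 87.0) were inside some gene and 219 inside a protein-coding one, while 36.5% (32.6 to 40.5) of sites FLAG-called in both altered lines were inside any gene. In the FLAG-alone class that neither altered line showed, 46.2% (41.2 to 51.3) were near a gene end and 83.1% (79.0 to 86.6) inside some gene, about the share seen in the 278. The share of the genome that lies inside genes or near their ends was not computed, so the shares compare classes of sites only. The annotation used has no strand and no exons, so starts and ends, and introns and exons, cannot be told apart here.

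**Figure D4:**
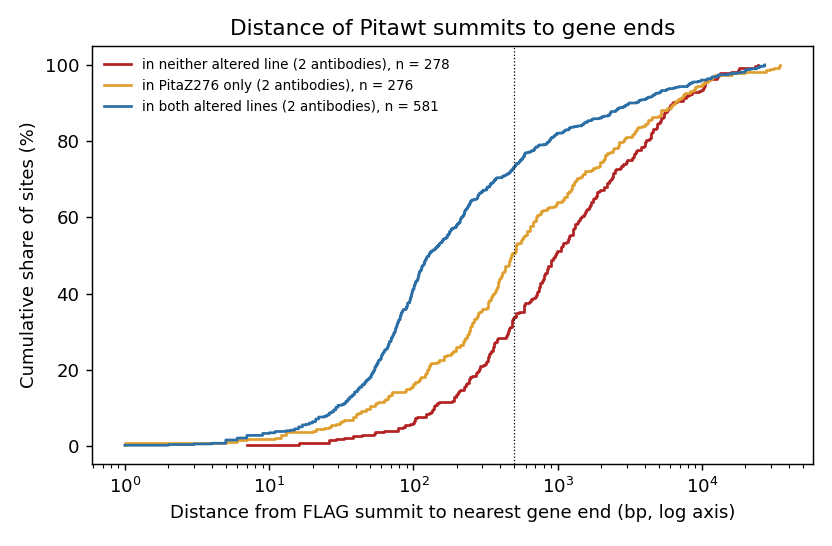
Cumulative share of sites by the distance from the Pitawt FLAG summit to the nearest gene end (log axis), with the 500 bp limit dotted. The median distance was 958 bp in the 278 sites, 479 bp in those FLAG-called in PitaZ276 only and 128 bp in those FLAG-called in both altered lines.

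The order of the classes was the same with a narrower and a wider window. Within 200 bp of an end lay 38 of the 278 sites (13.7%, 9.86 to 18.3), against 25.8% of the sites FLAG-called in PitaZ276 only and 57.7% of those FLAG-called in both altered lines. Within 1000 bp the shares were 51.1%, 63.4% and 81.7%. At the far side, 42 of the 278 summits were over 5000 bp from any end. The farthest lay between genes, 24516 bp from Toll-6, inside trol, the perlecan gene (23167 bp), and inside NFAT (18058 bp).

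The classes also differ in wild-type strength, so the shares were compared within fold bins, in which strength was not matched further. In bin 3 (folds 14.1 to 21.5), 9 of 32 sites were near a gene end (28.1%, 13.7 to 46.7), against 61.2% (54.0 to 68.1) of the other two-antibody sites. In bin 4 the shares were 39.5% (28.4 to 51.4) and 56.2% (48.0 to 64.2), and in bin 5 they were 32.7% (25.6 to 40.5) and 50.7% (38.2 to 63.2). The intervals are apart in bin 3 and overlap in bins 4 and 5. In bins 1 and 2 there were 2 of 3 and 0 of 5 sites near a gene end, too few to compare. The share among the 278 showed no steady course from strong to weak, while among the other sites it went down from 74.3% to 50.7%.

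**Figure D5:**
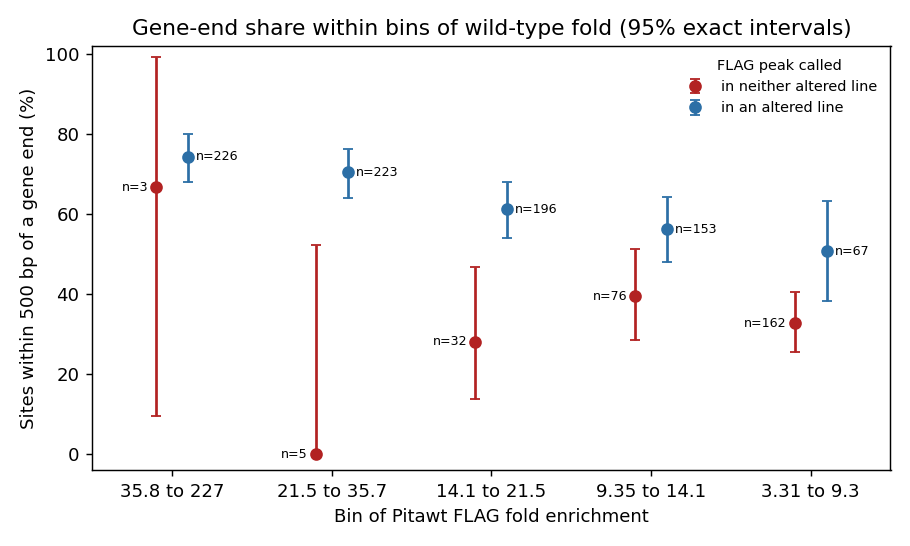
Share of two-antibody sites within 500 bp of a gene end in 5 bins of Pitawt FLAG fold, strongest on the left, with exact 95% intervals and the number of sites. The 278 sites lie below the others in every bin, with intervals that do not overlap in bins 2 and 3, bin 2 holding only 5 of the 278.

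The 278 sites reached 300 genes, counting a gene when a summit lay inside it or within 500 bp of its end, or 1.70% of the 17684 genes on the named chromosomes. Of these, 280 were protein-coding, 12 were lncRNA genes, 3 antisense RNA genes, 2 tRNA genes, 2 pseudogenes and 1 a snoRNA gene. Long genes offer more room for a summit: genes holding a summit had a median length of 6031 bp, against 1710 bp for all genes. Genes holding a summit FLAG-called in both altered lines were longer still, with a median of 9937 bp. Counts in gene lists are therefore given as descriptions beside the share over all genes. For sites FLAG-called in both altered lines the latter was 4.56%.

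Among receptors of peptides, amines and transmitters 4 of 70 genes were reached (5.71%). GluClalpha held 2 sites, with FLAG folds of 17.5 and 7.61. The metabotropic glutamate receptor gene mGluR held the only site on chromosome 4 (fold 7.90). Proc-R, a proctolin receptor gene (7.22), and nAChRalpha6, a nicotinic acetylcholine receptor subunit gene (7.08), held 1 each, and all 5 summits lay at least 1606 bp from either end of the gene that held them. Of 44 neuropeptide and peptide hormone genes 2 were reached. The summit in Ptth, the prothoracicotropic hormone gene that times moulting through ecdysone, lay 62 bp from the gene end with folds of 19.3 (FLAG) and 18.9 (Pita). The one in ITP, the ion transport peptide gene, had a FLAG fold of 5.76. None of the 46 genes of the ion channel list was reached, but that list leaves out channels that were: GluClalpha and nAChRalpha6, and also CngB and pHCl-1, named after their values were seen.

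Of 83 signalling genes 5 were reached. Beside rho-6 these were sog, the BMP antagonist short gastrulation (10.7), the kinase genes Akt (8.38) and bsk, the fly JNK (6.88), and Dif, an NF-κB factor of Toll signalling (5.87). The share was 6.02%, against 14.5% of the same list reached by sites FLAG-called in both altered lines. Over all genes these sets of sites reached 1.70% and 4.56%, so both shares were above their background. Of 97 developmental transcription factor genes 3 were reached: grh, the ecdysone receptor partner usp (13.7) and the eye gene so (6.02). Among 66 axon guidance and adhesion genes only haf and the integrin gene mew (9.37) were reached. Of 56 replication, repair and cell cycle genes grp and polo, a mitotic kinase gene (10.1), were reached, grp by a summit 361 bp outside one end (fold 36.4) and one 321 bp inside (8.12).

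Of 26 architectural protein genes 1 was reached, Chro, which encodes the interband protein Chromator (7.07). Among 33 Polycomb and trithorax group genes jing (10.1) and ph-d (8.76) were reached. Of 257 chemosensory genes there were 2, the gustatory receptor gene Gr61a (10.4) and the ionotropic receptor gene Ir87a (10.4). No cytoplasmic ribosomal protein gene of 93 was reached, against 16 of 93 by sites FLAG-called in both altered lines, and none of 157 cytochrome P450, glutathione transferase and glucuronosyltransferase genes. Of 3308 non-coding RNA genes 18 were reached (0.544%), among them tRNA:Pro-TGG-1-1 (15.0), tRNA:Pro-CGG-2-2 (13.3), lncRNA:CR44206 (13.0) and lncRNA:CR44941 (11.8). These lists were drawn up with earlier results of these data known, and a gene can share a peak with its neighbour.

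Some genes held several of the sites. Inside tyn, which encodes a zona pellucida domain protein of the cuticle, 3 summits lay within 6792 bp on X, at 190480, 195168 and 197272, with FLAG folds of 13.8, 9.14 and 11.3. These were all 3 two-antibody sites inside tyn. CenG1A held 2, with folds of 31.3 and 15.9 at summits 13882882 and 13877116. In jar, the myosin VI gene, the summits were at 24265925 and 24266752 on 3R (folds 10.5 and 7.69), and in mtd, an oxidation resistance gene, at 5281379 and 5282210 on 3R (7.33 and 9.22). Pairs also lay in ps, a splicing factor gene (6.51 and 7.54), in chn (6.16 and 5.21), in sbb (8.10 and 5.66, both also inside CG14502), in ND-15 and in lncRNA:CR43836. The Gk1 and NitFhit genes overlap and shared the same pair, with folds of 14.7 and 5.67. CG4313 had a summit beside it at 13.7, the one inside usp, and another within it at 6.72.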

How the data were processed

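Formaldehyde-fixed chromatin was immunoprecipitated from whole adult flies in 13 libraries. Per the submitters' processing notes the authors used cutadapt, Bowtie2, Picard, bedtools, MACS2 and deepTools with build dm6; their versions are not given here. The 6 deposited lists have 20 columns and no header, in the layout of an irreproducible discovery rate (IDR) test that joins a pair of lists. The fold enrichment of a peak is a ratio as deposited, taken from the first joined list. The −log10 p-value of each joined list, the −log10 q-value and the −log10 global IDR (used as a score) were read as deposited from that layout; the sources used here do not tie a library to a joined list.

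Peaks were compared by overlap of at least 1 bp on columns 1 to 3, in 1-based coordinates. Where several Pita peaks met a region the one with the highest fold was used. Fold bins are quintiles over the 1143 two-antibody sites. Genes came from RefSeq Release 6, the assembly that dm6 names. Named sites were the 12 by FLAG and 8 by Pita fold, all met by an altered-line Pita peak, 5 on either side of the limit, genes with 2 or more sites and up to 4 per gene list; those farthest from gene ends, the weakest, and those met by 2 Pita peaks were named after their values were seen. Of the 12 by FLAG fold 1 is not reported here. The planned printing of promoter sequences was not done here. The members and lists were chosen with earlier results of these data known. The rule was checked on simulated data. The tools were Python 3.11.15, scipy 1.17.1, numpy 2.4.6, pandas 2.3.3 and, for plots, matplotlib 3.10.9.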

Additional observations from a re-analysis of the deposited data

How the results depend on the processing

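The number of regions was 278. It was 257 to 316 under 50% reciprocal overlap, summits within 100 bp, a wild-type −log10 q of at least 5 or fold of at least 4, absence from all altered lists, altered peaks extended by 500 bp and chromosome arms only. With altered peaks extended by 2000 bp, chosen after seeing the data, it was 260, and 9 of the 12 strongest were still in; those at rho-6, FucTA and Prip were not. Under 50% reciprocal overlap 213 of the 257 were shared with the 278, and under a −log10 IDR of at least 2 in every list the number moved to 184, of which 163 were shared, with all 12 of the strongest. Of the 4 lists in the rule that setting shortens Pitawt Pita and PitaZ276 FLAG. On the second joined list's coordinates, also chosen after seeing the data, it was 278 again, all but 2 of them shared. The share near a gene end moved with the window by its construction, to 13.7% at 200 bp and 51.1% at 1000 bp, and stayed at 31.0 to 33.9% with protein-coding genes only, the Pita summit, the second list's summit, 50% reciprocal overlap or the IDR minimum. The share met by a PitaΔZ Pita peak was 0.360% with summits within 100 bp and 0.719% with peaks extended by 500 bp; in PitaZ276 Pita it was 0 in both. The median distance between antibody summits was 20 bp with the nearest Pita summit too. No paired analysis was possible because each line and antibody has 1 joined list, in which the libraries have no columns of their own; for the same reason no library could be left out. Without read counts, an uncalled site cannot be told from one under the threshold.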

Other observations

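Among the two-antibody sites, in the order of summits along the chromosomes, 138 of the 278 had no other of the 278 as a neighbour. The rest formed runs: 44 pairs, 13 runs of 3, 2 runs of 4 and 1 run of 5. The run of 5 lay on 2L from 9997032 to 10467319, a span of 470287 bp, at SoYb, a piRNA pathway gene, bsk, Cox10, a haem A synthesis gene, Sps2, a selenophosphate synthetase gene, and RluA-1, with folds of 6.66 to 12.5. A run of 4 on 3R from 5377949 to 5572631 lay at 7B2, a chaperone gene of neuroendocrine cells, NKCC, a cation-chloride cotransporter gene, Pi4KIIalpha and CRMP. Another on 2R from 11438742 to 11834069 lay at Prip, qvr, the sleep gene quiver, Roc2 and Sobp. The runs were picked after their values were seen and have no test.

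The nearest site FLAG-called in both altered lines was a median of 60531 bp from a site of the 278, and within 10 kb at 27 of them (9.71%, 6.50 to 13.8). For sites FLAG-called in PitaZ276 only the median was 56810 bp and the share 9.42% (6.25 to 13.5). On 2R lay 64 of the 278 sites (23.0%, 18.2 to 28.4), against 16.3% (13.4 to 19.5) of the sites FLAG-called in both altered lines. These intervals overlap. The 2R share was 16.8% in sites FLAG-called in PitaZ276 only. It was 22.2% in the FLAG-alone sites called in neither altered line, close to that of the 278. On X the share was 17.3% (13.0 to 22.2) in the 278 and, in the same order of classes, 22.4%, 17.9% and 18.9%. Shares were computed for every chromosome arm, and only those of 2R and X are given here, without a test.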
